A study of Drosophila melanogaster with 12 samples.

Results

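The cytosolic ribosomal protein genes of Drosophila melanogaster were followed through a set of Affymetrix arrays from Kc167 cells. A gene was included when a probe set of the deposited table carried a single platform gene symbol made of RpL, RpS or RpLP and a number. The rule found 47 probe sets of 41 genes, out of 11982 genes in all. Each gene was represented by its probe set with the highest mean over the 12 arrays. The 41 genes comprise 15 common large subunit genes, 11 common small subunit genes, the 3 stalk genes RpLP0, RpLP1 and RpLP2, and 12 paralogs, which are additional copies or relatives of a subunit gene. The RefSeq gene table holds 92 genes with such symbols, and the others were not analysed here.

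Each ribosome carries a single copy of most ribosomal proteins, and the common subunit genes are transcribed together at very high levels from a shared type of promoter in flies, so that the subunits are made in matching amounts. The acidic stalk proteins form a flexible arm of the large subunit that recruits translation factors. Some fly subunits have a further copy that is used mainly in the gonads, such as RpS5b, RpS10a, RpS19b and RpL22-like. Other paralogs are related to proteins that sit on the ribosome only while it is being built. RpLP0-like is the fly relative of the yeast assembly factor Mrt4, RpL24-like that of Rlp24 and RpL7-like that of Rlp7.

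Kc167 is a cell line of embryonic origin with hemocyte-like, that is blood cell-like, properties. The 12 arrays fall into 4 groups of 3, given here as Pc/ph+PTIP (double-stranded RNA, dsRNA, against Pc, ph and PTIP), Pc/ph (dsRNA against Pc and ph), PTIP (dsRNA against PTIP) and control (cells alone). The PTIP protein works with enzymes that methylate histone H3 at active genes, while the products of Pc and ph belong to a Polycomb complex that keeps developmental genes silent. Per the labels, 1000000 cells per well received 15 µg of dsRNA, serum was added to 5% after 1 hour and culture went on for 6 days. The protocol text is shared by all 4 groups, and the sources do not say whether the control cells received any dsRNA. Signals were deposited on the log2 scale after RMA, a multi-array summary of the probes of each probe set, and every level below is on that scale.

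The replicate 1 arrays of all 4 groups had another distribution of values, with upper quartiles of 8.65 to 8.95 against 9.62 to 9.74 on the other 8 arrays, and groups were compared within replicate numbers by a replicate block in limma. A gene was called at an adjusted p under 0.05 over all 18769 probe sets. In same-numbered pairs, the Pc transcript stood -1.14, -0.60 and -0.50 from control in Pc/ph+PTIP cells and -2.20, -2.49 and -2.30 in Pc/ph cells. Limma did not call the difference in Pc/ph+PTIP cells (adjusted p = 0.0601) and called that in Pc/ph cells (adjusted p = 0.000251), and Pc was itself called higher in Pc/ph+PTIP than in Pc/ph cells, by 1.59 (adjusted p = 0.00208, and 0.995 without the block). Those groups thus differ in the measured Pc transcript as well as in the PTIP dsRNA. The Ptip transcript stood -1.01, -0.46 and 0.15 from control in Pc/ph+PTIP cells and -0.72, -0.19 and -0.44 in PTIP cells, and limma called neither. The groups below are therefore named by the dsRNA in their labels. Of 10 hemocyte markers, 9 lay above every Y-linked probe set on all 12 arrays, the exception being Sr-CI, and limma called 0 of the 10 higher and 2 lower in Pc/ph+PTIP against control, 0 higher and 4 lower in Pc/ph+PTIP against Pc/ph, 1 higher and 2 lower in Pc/ph against control, and 0 higher and 4 lower in PTIP against control. Over all probe sets 5.57%, 5.5%, 1.53% and 6.52% were called in these comparisons. The part of the hemocyte marker differences in those of the ribosomal protein genes was not tested. The Y-linked probe sets, which this female line cannot express, spanned 4.05 to 5.57 and serve as the background. These are bulk samples, in which fewer cells of a type and less RNA per cell cannot be told apart. Nothing in the sources says that replicates were separate cultures, so the p-values measure only the spread between these arrays.

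The common subunits were among the brightest genes of the arrays. Their levels lay between 13.51 and 15.04 on all 12 arrays, and 28 of the 29 were above the 99th percentile of every array. The exception was RpL27, at 13.51 to 13.87, which passed that percentile on 6 arrays. RpL41, which encodes a very short peptide of the large subunit, had the highest common level, with 15.04, 14.85 and 14.78 in Pc/ph+PTIP cells, 14.92, 14.71 and 14.78 in Pc/ph cells, 14.89, 14.79 and 14.82 in PTIP cells and 14.92, 14.75 and 14.67 in control cells. The array maxima were 14.71 to 15.04, so these genes sat at the upper end of the measured range, and whether that compresses their differences was not tested. Of the 29 probe sets, 14 are of the type that can also bind transcripts of related genes, so the share of such transcripts in those values is unknown.

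The paralogs spread over the whole range, from 4.56 to 13.23, and none reached the 99th percentile on any array. The relatives of assembly factors were high: RpL7-like lay at 12.72 to 13.23, RpL24-like at 12.19 to 12.66 and RpLP0-like at 10.95 to 12.21. RpL34a, 1 of the fly's RpL34 copies, lay at 12.61 to 13.11. The copies RpS19b (7.53 to 8.91), RpS5b (6.50 to 7.86), RpS10a (6.36 to 7.39), RpS28a (6.69 to 7.30) and RpL37-2 (6.50 to 6.86) were lower and still above the highest Y-linked probe set on all 12 arrays. RpL10Aa passed it on 8 arrays, RpL22-like on 2 and RpS28-like on 0, so for these 3 the signal was at or near background. Where the partner of a paralog was measured, the partner was among the common subunits above the 99th percentile on all 12 arrays, which held for RpL10Ab, RpL37-1, RpLP0 and RpS28b. Probe sets differ in how they bind, so no size is read from the distance between a paralog and its partner.

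**Figure D1:**
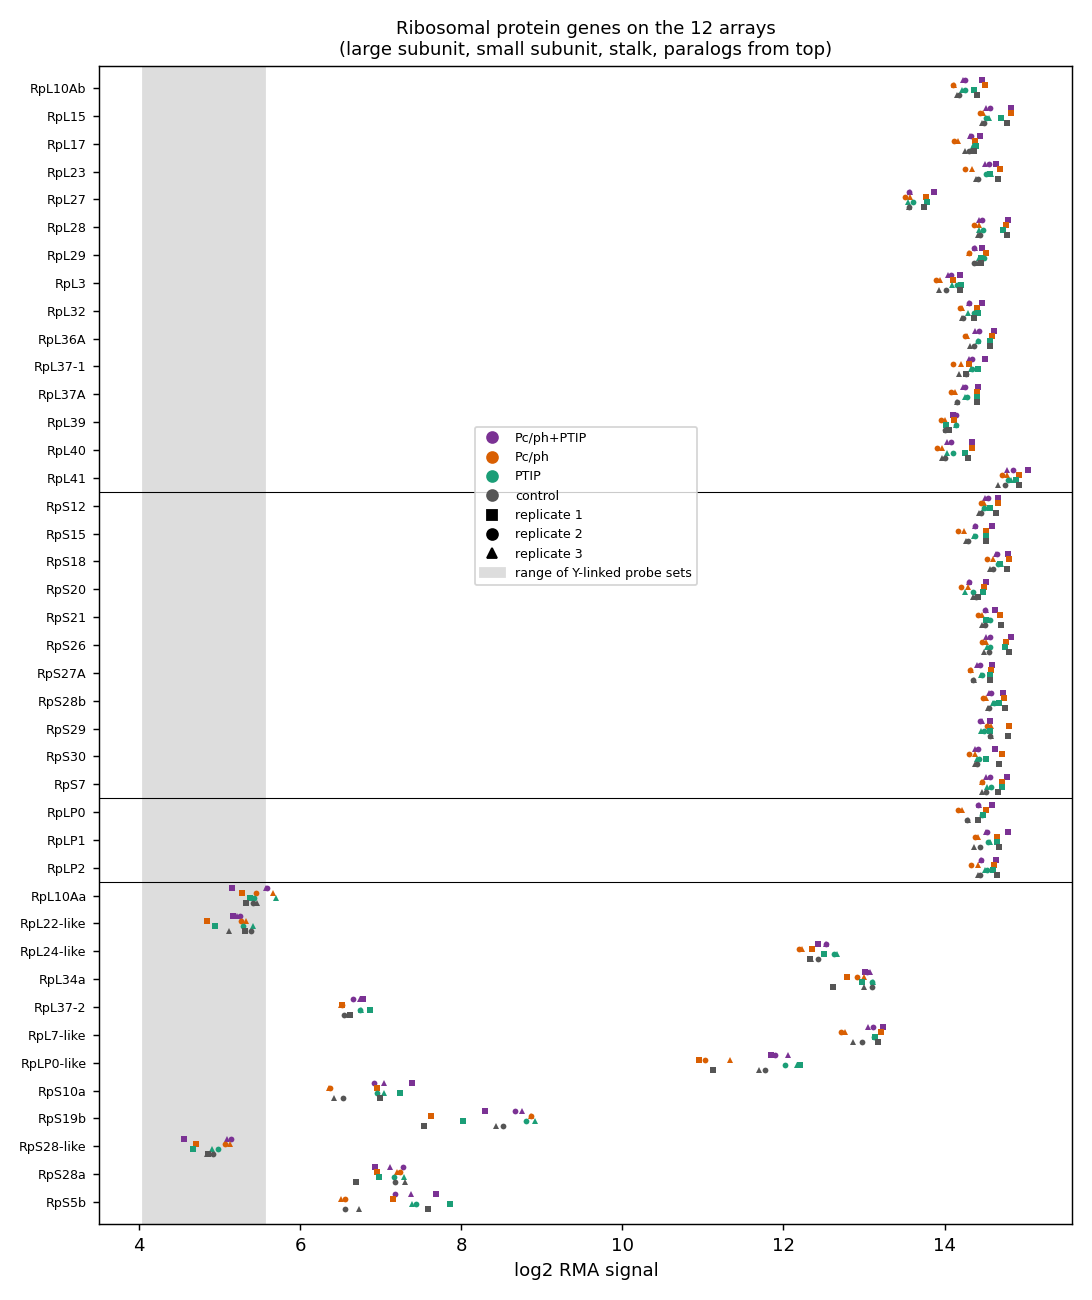
Log2 RMA signal (x axis) of the 41 ribosomal protein genes (y axis) on the 12 arrays, with colour for the group. The common subunits crowd between 13.51 and 15.04, and the paralogs at the bottom run from 4.56 to 13.23, with RpS28-like, RpL22-like and RpL10Aa near the Y-linked background.

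PTIP dsRNA against control asks what goes with PTIP dsRNA in cells given none against Pc and ph. The Ptip transcript itself had a fitted difference of -0.45 there and was not called. In this comparison 3 of the 41 genes were called, all 3 higher and all 3 paralogs: RpS5b, RpLP0-like and RpS10a. That is 7.32% of the members, against 6.52% of all probe sets called in either direction and 2.72% called higher. Of the 29 common subunits limma called 0, with 1 at an unadjusted p under 0.05, and without the replicate block these counts were 0 and 0. Over all 18769 probe sets, 3424 had an unadjusted p under 0.05 with the block and 773 without it. Without the block no member at all was called, against 0.272% of all probe sets. The common subunits had a median fitted log2 difference of 0.05, with values from -0.15 to 0.14 and SEs of 0.061 to 0.085, beside a median of 0.03 over all 11982 genes. The 95% intervals of all 29 lay between -0.29 and 0.31. Of the 29 differences 25 were positive, as were 58.2% of those of all genes.

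The small positive shift of the common subunits did not have the same sign on all pairs of arrays. The median difference between PTIP and control was -0.03 in replicate 1, where 11 of 29 genes were higher, 0.07 in replicate 2 with 27 higher and 0.08 in replicate 3 with 26 higher. The 73 other genes with means above the 99th percentile had medians of -0.10, 0.01 and 0.00 in the same pairs, and 0 of them were called higher and 7 lower. Over the 20 other ways of fitting, the median of the common subunits in this comparison ran from 0.01 to 0.09 and none of the 29 was called.

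Pc/ph dsRNA against control asks what goes with dsRNA against the Polycomb subunits alone. The ph transcript was not followed here. No ribosomal protein gene was called by limma, against 1.53% of all probe sets, and 1 gene, RpLP0-like, had an unadjusted p under 0.05. Without the block the counts were again 0 and 1, against 0.197% of all probe sets called. An unadjusted p under 0.05 was found for 1887 of all 18769 probe sets with the block and 429 without it. The common subunits had a median difference of -0.02, with 3 of 29 positive and medians of 0.02, -0.07 and -0.01 in the 3 pairs. Their 95% intervals lay between -0.24 and 0.17. Of the 12 omissions of a single array, only that of Pc/ph replicate 2 turned the median positive, to 0.01 with 20 of 29 positive.

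Pc/ph+PTIP dsRNA was set against both single conditions and the control. Against control, RpS10a alone was called, higher, which is 2.44% of the members beside 5.57% of all probe sets in either direction and 2.71% higher. Against Pc/ph, the same 3 paralogs as in PTIP cells were called, all higher, which is 7.32% beside 5.5% of all probe sets in either direction and 2.9% higher. The arrays of that comparison are not those of PTIP against control, although all 12 share the estimate of spread. Without the block 0 members were called in either comparison, beside 0.272% of all probe sets against control and 0.298% against Pc/ph. Against PTIP, limma called 0 members, beside 0.032% of all probe sets. At an unadjusted p under 0.05 there were 0 members, beside 778 of all 18769 probe sets. The interaction is the difference between Pc/ph+PTIP and Pc/ph minus that between PTIP and control. It was called for 0 members and 0.186% of all probe sets. Its unadjusted p was under 0.05 for 0 members and for 847 of all 18769 probe sets. Without the block 0 members were called in these last 2 tests, beside 0.032% and 0.00533% of all probe sets.

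The common subunits had medians of 0.06 in Pc/ph+PTIP against control and 0.07 against Pc/ph, beside 0.01 over all genes in each. In the 3 array pairs the medians were 0.05, 0.06 and 0.06 against control and 0.02, 0.12 and 0.07 against Pc/ph. None of the 29 was called, and 1 and 3 of them had an unadjusted p under 0.05 in the 2 comparisons. Among all 18769 probe sets these unadjusted counts were 3131 and 3134. The means of the 29 common subunits were 14.57, 14.39 and 14.37 on the Pc/ph+PTIP arrays, 14.55, 14.26 and 14.31 on the Pc/ph arrays, 14.50, 14.41 and 14.39 on the PTIP arrays and 14.53, 14.34 and 14.31 on the control arrays. Replicate 1 was the highest array within each group, and the groups overlapped.

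**Figure D2:**
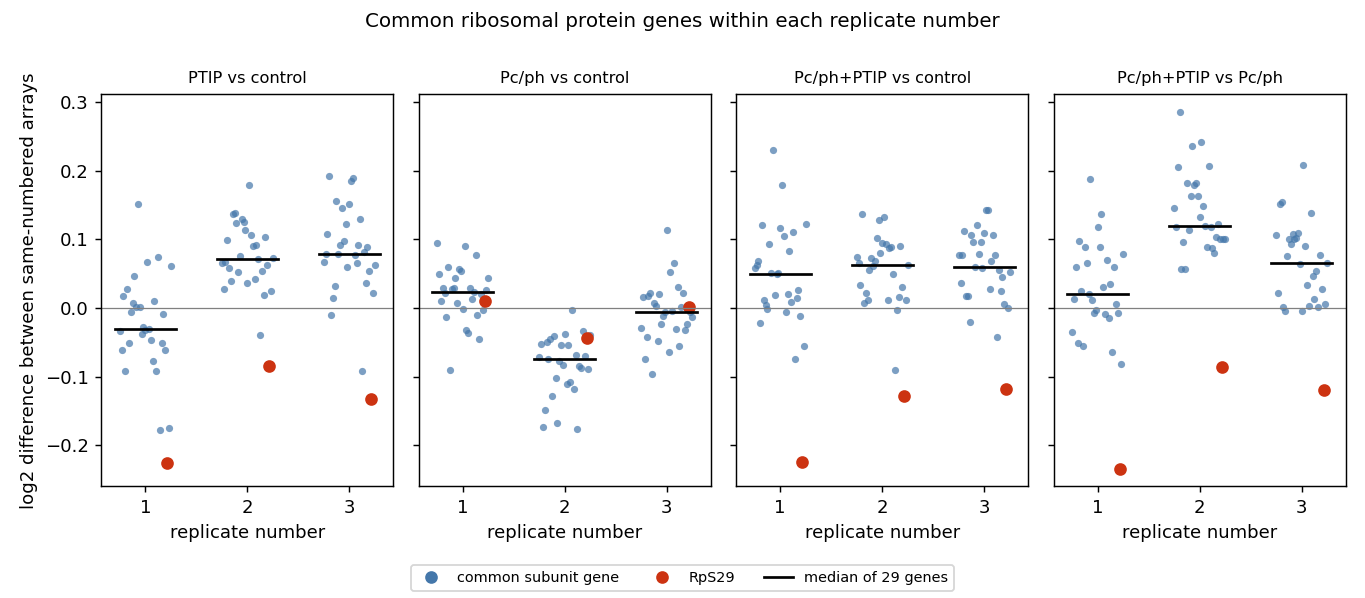
Log2 difference between same-numbered arrays (y axis) for the common subunits by replicate number (x axis), with a panel for each comparison. The differences stay close to 0, and in PTIP against control the replicate 1 median of -0.03 lies below the medians of 0.07 and 0.08 in replicates 2 and 3.

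RpL32, widely used in flies as a reference transcript for quantitative PCR and singled out here for that use, had levels within the range of the other common subunits. Its levels were 14.46, 14.31 and 14.31 in Pc/ph+PTIP cells, 14.40, 14.19 and 14.22 in Pc/ph cells, 14.42, 14.36 and 14.29 in PTIP cells and 14.37, 14.23 and 14.22 in control cells. The fitted log2 differences were 0.09 for Pc/ph+PTIP, -0.0031 for Pc/ph and 0.08 for PTIP, each against control, and none was called by limma. The groups overlapped.

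The stalk genes did not pass the test in any comparison. RpLP0, which anchors the stalk on the large subunit, had levels of 14.59, 14.41 and 14.43 in Pc/ph+PTIP cells, 14.51, 14.17 and 14.22 in Pc/ph cells, 14.48, 14.46 and 14.47 in PTIP cells and 14.41, 14.28 and 14.29 in control cells. The PTIP arrays all lay above the control arrays, by a fitted 0.14 ± 0.07 (SE, n = 3; limma adjusted p = 0.359), the largest positive difference of a common subunit in that comparison. RpLP1 and RpLP2, the acidic proteins that RpLP0 carries, had fitted differences of 0.09 and 0.04 between PTIP and control. Against Pc/ph, Pc/ph+PTIP cells had fitted differences of 0.18 for RpLP0, 0.13 for RpLP1 and 0.06 for RpLP2.

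RpS29, a zinc-binding protein of the small subunit, was singled out after its values were seen, because it had the most negative difference of the common subunits in PTIP against control and the lowest correlation with their mean. It had 14.57, 14.44 and 14.46 in Pc/ph+PTIP cells, 14.80, 14.53 and 14.58 in Pc/ph cells, 14.56, 14.49 and 14.45 in PTIP cells and 14.79, 14.57 and 14.58 in control cells. Both groups with PTIP dsRNA lay below all 3 control arrays, the closest of them narrowly. The fitted differences were -0.16 in Pc/ph+PTIP cells (limma adjusted p = 0.251), -0.01 in Pc/ph cells and -0.15 ± 0.07 in PTIP cells (SE, n = 3; adjusted p = 0.268), each against control. Over the 20 other ways of fitting, the adjusted p in PTIP cells ran from 0.0952 to 1.00 and the difference from -0.18 to -0.11. A further RpS29 probe set had 14.31, 14.26 and 14.22 in Pc/ph+PTIP cells, 14.52, 14.36 and 14.35 in Pc/ph cells, 14.29, 14.28 and 14.28 in PTIP cells and 14.47, 14.33 and 14.36 in control cells, with differences of -0.12, 0.03 and -0.10 from control, none called. Across the 12 arrays, with replicate means removed, RpS29 had the lowest correlation with the mean of the common subunits, at -0.35. Of the 29, 27 were above 0.6, and RpS20 had 0.36. Each of the 29 is itself part of that mean, so high values among them are partly built in.

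RpLP0-like, the relative of the assembly factor that holds the place of RpLP0 in the unfinished large subunit, was called in 2 comparisons. It had 11.85, 11.90 and 12.06 in Pc/ph+PTIP cells, 10.95, 11.03 and 11.34 in Pc/ph cells, 12.21, 12.02 and 12.17 in PTIP cells and 11.12, 11.77 and 11.70 in control cells. The Pc/ph+PTIP arrays all lay above the Pc/ph arrays and the PTIP arrays all lay above the control arrays, while the replicate 1 control array fell within the range of Pc/ph. It rose 1.78-fold in Pc/ph+PTIP against Pc/ph cells, by 0.83 ± 0.14 on the log2 scale (SE, n = 3; limma adjusted p = 0.00744), with differences of 0.90, 0.88 and 0.72 in the 3 pairs. In PTIP against control cells it rose 1.52-fold, by 0.60 ± 0.14 (adjusted p = 0.0278), with differences of 1.09, 0.24 and 0.47. The difference between Pc/ph and control was -0.42 ± 0.14 (adjusted p = 0.233), and that between Pc/ph+PTIP and control 0.41 ± 0.14 (adjusted p = 0.128). Without the block neither rise was called (adjusted p = 0.159 against Pc/ph and 0.444 in PTIP against control). Leaving out single arrays kept the call against Pc/ph in 12 of 12 cases. Over all 20 other ways of fitting the adjusted p ran from 0.000506 to 0.159 against Pc/ph and from 0.0149 to 0.444 in PTIP against control. The call in PTIP against control was lost without control replicate 1 (adjusted p = 0.0923), control replicate 3 (0.0879), PTIP replicate 1 (0.0781), PTIP replicate 3 (0.0622) or Pc/ph+PTIP replicate 3 (0.0527). The difference between Pc/ph and control became a call without control replicate 1, at -0.60 (adjusted p = 0.0453), and in replicates 2 and 3 alone, at -0.55 (adjusted p = 0.0088).

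RpS5b, a small subunit gene used mainly in the gonads, had 7.68, 7.18 and 7.38 in Pc/ph+PTIP cells, 7.15, 6.56 and 6.50 in Pc/ph cells, 7.86, 7.44 and 7.39 in PTIP cells and 7.59, 6.56 and 6.73 in control cells. In each group the replicate 1 array was the highest. The Pc/ph+PTIP arrays all lay above the Pc/ph arrays, while the PTIP and control groups overlapped through control replicate 1. It rose 1.60-fold in Pc/ph+PTIP against Pc/ph cells, by 0.68 ± 0.12 (SE, n = 3; limma adjusted p = 0.00941), and 1.52-fold in PTIP against control cells, by 0.60 ± 0.12 (adjusted p = 0.015). The PTIP pairs differed by 0.28, 0.88 and 0.66. Against control, Pc/ph+PTIP cells had 0.46 ± 0.12 (adjusted p = 0.0504), just outside the threshold, and it was called in 9 of the 20 other ways of fitting. Without the block RpS5b was not called (adjusted p = 1.00 in all 3), and with it the lowest adjusted p of the other ways of fitting was 0.000475 against Pc/ph and 0.00052 in PTIP against control. The call in PTIP against control was lost without control replicate 2 (adjusted p = 0.0633), control replicate 3 (0.0696), PTIP replicate 2 (0.0568) or PTIP replicate 3 (0.0596). That against Pc/ph was lost without Pc/ph replicate 3 (0.0584), Pc/ph+PTIP replicate 2 (0.0537) or Pc/ph+PTIP replicate 3 (0.0628).

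RpS10a, the gonad-biased copy of the small subunit protein RpS10, was called in 3 comparisons. It had 7.39, 6.91 and 7.04 in Pc/ph+PTIP cells, 6.95, 6.37 and 6.36 in Pc/ph cells, 7.24, 6.95 and 7.04 in PTIP cells and 6.99, 6.53 and 6.42 in control cells. Within every replicate number both groups with PTIP dsRNA were above both groups without it, although the groups overlap when the numbers are ignored, since replicate 1 was again the highest. It rose 1.47-fold in Pc/ph+PTIP against Pc/ph cells, by 0.55 ± 0.09 (SE, n = 3; limma adjusted p = 0.00596), 1.38-fold against control, by 0.47 ± 0.09 (adjusted p = 0.0129), and 1.35-fold in PTIP against control cells, by 0.43 ± 0.09 (adjusted p = 0.0167). The difference between Pc/ph and control was -0.09. Without the block none of the 3 was called (adjusted p = 0.956, 1.00 and 1.00), and leaving out single arrays kept the call against Pc/ph in 12 of 12 cases. The lowest adjusted p of the other ways of fitting was 0.000914, 0.00241 and 0.00229 in the 3 comparisons. The call in PTIP against control was lost without control replicate 3 (adjusted p = 0.0818), PTIP replicate 2 (0.0578) or PTIP replicate 3 (0.086). That in Pc/ph+PTIP against control was lost without control replicate 3 (0.0674) or Pc/ph+PTIP replicate 3 (0.078).

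For the 3 called paralogs the difference between Pc/ph+PTIP and Pc/ph and that between PTIP and control were themselves compared. The interactions were 0.23 for RpLP0-like, 0.12 for RpS10a and 0.07 for RpS5b, with 95% intervals of -0.19 to 0.66, -0.15 to 0.39 and -0.29 to 0.44. None was called by limma (adjusted p = 1.00 each), and the intervals leave room for sizeable differences in both directions. Nor did Pc/ph+PTIP differ from PTIP cells by a called amount, with -0.19 for RpLP0-like, 0.03 for RpS10a and -0.15 for RpS5b. The genes that flank the 3 in the RefSeq annotation were measured too. They were Jra and 14-3-3zeta beside RpLP0-like, tau and Mlc1 beside RpS10a, and VhaPPA1-2 and VhaPPA1-1 beside RpS5b. None was called in PTIP against control or in Pc/ph+PTIP against Pc/ph, beside 6.52% and 5.5% of all probe sets. Group means were at or near background for tau (4.34 to 4.39), Mlc1 (5.10 to 5.25) and VhaPPA1-2 (5.12 to 5.18). At that level no difference can be read, which leaves RpS10a without a readable flanking gene. Of the flanking genes, 14-3-3zeta had 0.28 in Pc/ph+PTIP against Pc/ph and 0.34 in PTIP against control. Its replicate 1 differences were 0.98 and 0.86.

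**Figure D3:**
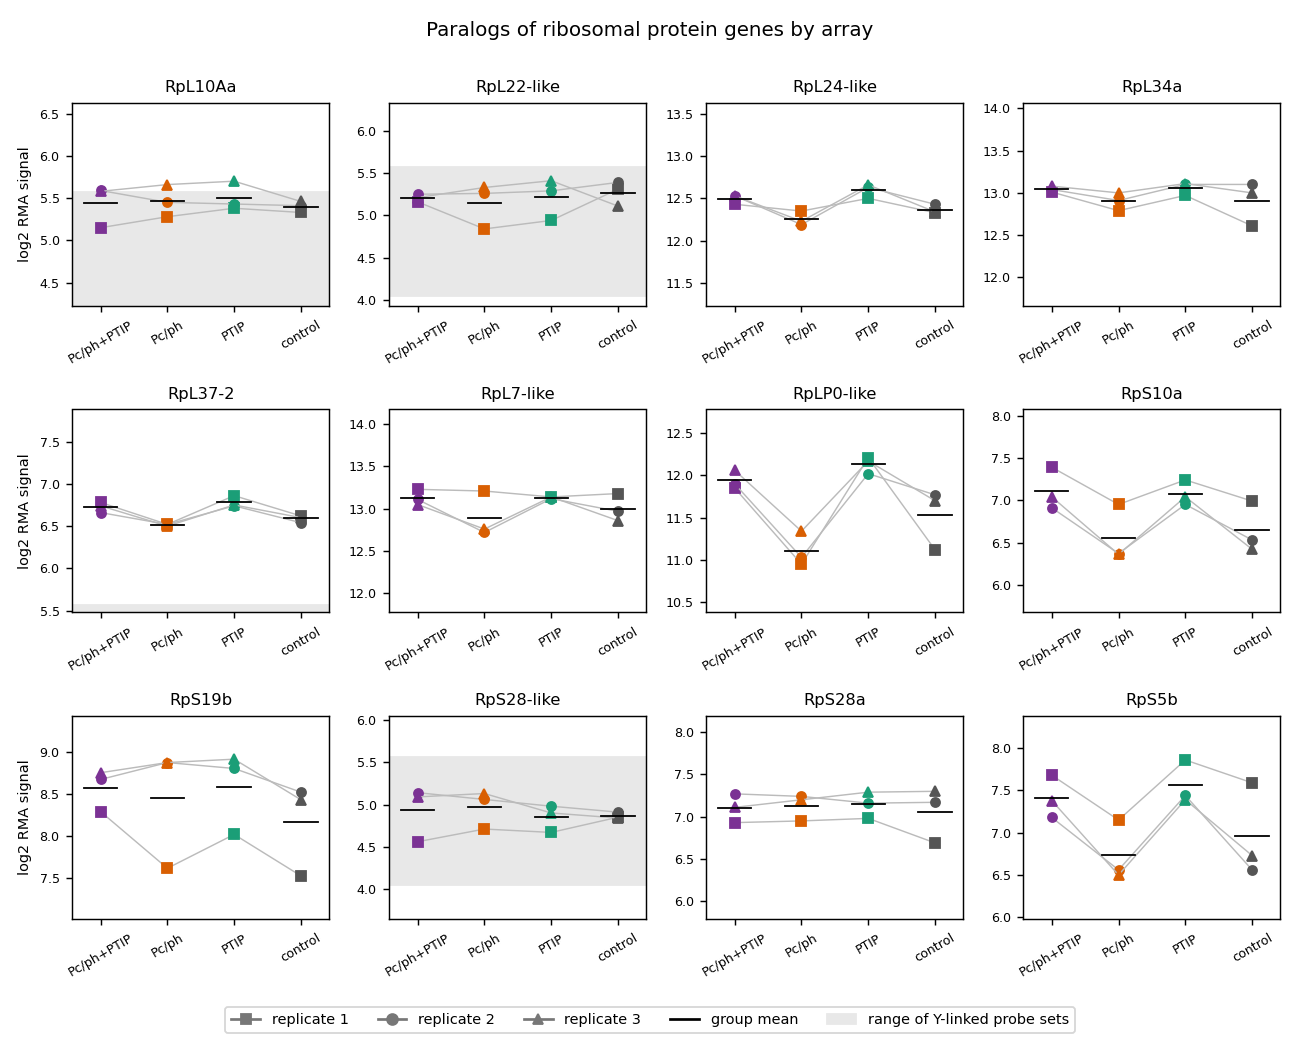
Log2 RMA signal (y axis) of the 12 paralogs, 1 panel each with its own axis range, by group (x axis), with replicate numbers shown as separate marks. RpLP0-like, RpS5b and RpS10a stand higher in the groups with PTIP dsRNA, and in RpS5b and RpS10a the replicate 1 arrays sit above the others of their group.

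The other relatives of assembly factors had positive differences in the same comparisons that did not pass the test. RpL24-like had 12.43, 12.53 and 12.53 in Pc/ph+PTIP cells, 12.35, 12.19 and 12.23 in Pc/ph cells, 12.50, 12.63 and 12.66 in PTIP cells and 12.33, 12.43 and 12.34 in control cells. Each group with PTIP dsRNA lay wholly above its counterpart without it. The fitted differences were 0.24 ± 0.08 in Pc/ph+PTIP against Pc/ph (SE, n = 3; limma adjusted p = 0.110) and 0.23 ± 0.08 in PTIP against control (adjusted p = 0.114). RpL24-like was called in both comparisons after quantile normalization of all arrays, or of replicate 1 apart from replicates 2 and 3. It was also called in both after cyclic loess and in replicates 2 and 3 alone, and against Pc/ph without Pc/ph replicate 1. RpL7-like had fitted differences of 0.24 in Pc/ph+PTIP against Pc/ph and 0.13 in PTIP against control, with replicate 1 differences of 0.02 and -0.03, and was called against Pc/ph in replicates 2 and 3 alone (limma adjusted p = 0.0116) and without Pc/ph replicate 1 (adjusted p = 0.0415).

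Further probe sets exist for RpL3, RpS29, RpS30 and RpS7, and that of RpS30 had a difference of 0.53 ± 0.16 in PTIP against control (SE, n = 3; limma adjusted p = 0.0882) while the brighter one of that gene had -0.04, neither called. The dimmer probe set of RpS7 was called in 2 comparisons in which the brighter one was not.

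Among the low copies, RpL37-2 had small differences between the groups with and without PTIP dsRNA. It had 6.78, 6.66 and 6.74 in Pc/ph+PTIP cells, 6.52, 6.52 and 6.50 in Pc/ph cells, 6.86, 6.74 and 6.75 in PTIP cells and 6.62, 6.54 and 6.60 in control cells. Both groups with PTIP dsRNA lay above both without it, with fitted differences of 0.21 ± 0.06 in Pc/ph+PTIP against Pc/ph (SE, n = 3; limma adjusted p = 0.0908) and 0.19 ± 0.06 in PTIP against control (adjusted p = 0.111). Its common partner RpL37-1 had 0.18 and 0.12 in the same comparisons, also not called. RpS19b, the gonad-biased copy of RpS19, had 8.29, 8.67 and 8.75 in Pc/ph+PTIP cells, 7.62, 8.87 and 8.87 in Pc/ph cells, 8.02, 8.80 and 8.91 in PTIP cells and 7.53, 8.52 and 8.43 in control cells. Here control cells were lowest in every replicate number, and the replicate 1 arrays were the low ones. The fitted differences from control were 0.41 in Pc/ph+PTIP, 0.29 in Pc/ph and 0.42 in PTIP cells (limma adjusted p = 0.148, 0.566 and 0.128). In replicates 2 and 3 alone RpS19b was called in Pc/ph (adjusted p = 0.0172) and in PTIP cells (adjusted p = 0.0109). It was also called without Pc/ph replicate 1 in Pc/ph+PTIP (adjusted p = 0.0473) and PTIP cells (0.0405), and without Pc/ph+PTIP replicate 1 in PTIP cells (0.0362).

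RpL34a had fitted differences of 0.15 in Pc/ph+PTIP against Pc/ph and 0.16 in PTIP against control, where the PTIP pairs differed by 0.36, -0.0015 and 0.11. RpS28a had -0.02 and 0.09 in the same comparisons. The 3 paralogs at or near background had differences between -0.12 and 0.10 from control in all groups, and at that level no difference can be read. The common partners RpL10Ab and RpS28b had 0.03 and 0.02 in PTIP against control. Over the 12 paralogs the median differences were 0.18 in Pc/ph+PTIP against Pc/ph, 0.13 in Pc/ph+PTIP against control, -0.08 in Pc/ph against control and 0.17 in PTIP against control. The medians over all 11982 genes were 0.01, 0.01, -0.0006 and 0.03. Those of the paralogs include the 3 at or near background.

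**Figure D4:**
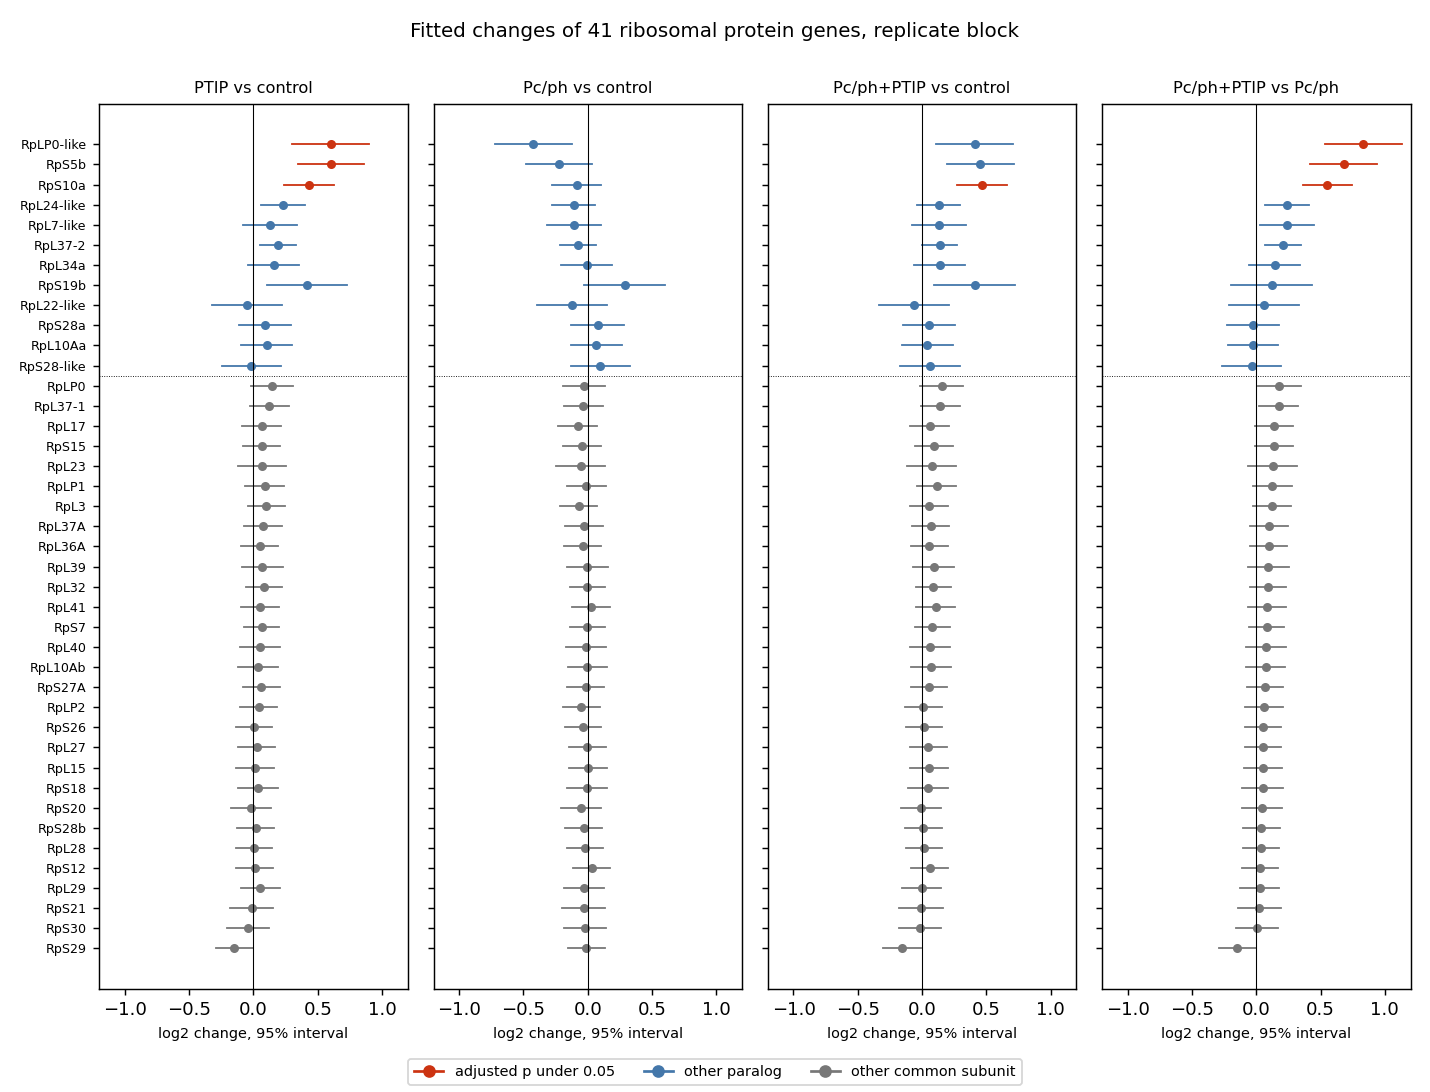
Fitted log2 changes with 95% intervals (x axis) of the 41 genes (y axis), with a panel for each comparison and a dotted line between common subunits and paralogs. The common subunits lie within a narrow band around 0, and RpLP0-like, RpS5b and RpS10a reach 0.83, 0.68 and 0.55 in Pc/ph+PTIP against Pc/ph.

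Markers of the gonads were followed beside the gonad-biased copies. Of 9 germline markers measured, vas, osk and otu were at background on all 12 arrays. The other 6, aub, AGO3, bam, bgcn, Rbp9 and tej, lay above every Y-linked probe set on all 12. The mean level of the 9 ranged over 6.69 to 6.77 in Pc/ph+PTIP and 6.67 to 6.82 in Pc/ph cells. In PTIP and control cells it ranged over 6.69 to 6.88 and 6.71 to 6.89. In PTIP against control cells bam, a differentiation factor of the germline, was called higher by 0.83, and aub and bgcn were called lower, at -0.57 and -0.61. In Pc/ph+PTIP against control bam was called higher by 0.96 and bgcn lower, at -0.81, and aub had -0.51, not called. In Pc/ph+PTIP against Pc/ph the 3 had 0.42, -0.31 and -0.39, not called. Of the 9 germline markers, limma thus called 1 higher and 2 lower, 1 higher and 1 lower, and 0 in these comparisons. Over all probe sets 6.52%, 5.57% and 5.5% were called in either direction. The median difference of the 9 was 0.03 in PTIP against control and -0.16 in Pc/ph+PTIP against control. Of 10 testis markers, 0 were called. Among them can, dj, Mst84Da, Mst87F and ocn were at background on all arrays, while mia, aly and topi lay above every Y-linked probe set on all 12. The mean level of the 10 ranged over 5.41 to 5.91 in Pc/ph+PTIP and 5.42 to 5.87 in Pc/ph cells. In PTIP and control cells it ranged over 5.51 to 5.95 and 5.50 to 5.92. Of 4 neuron markers measured, elav, nSyb and brp also lay above on all 12 arrays and fne on none. A level above the Y-linked probe sets thus does not by itself mark a cell type. The part of the bam, aub and bgcn differences in those of RpS5b and RpS10a was not tested.

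Genes were ranked by the correlation of their levels with the mean of the 29 common subunits over the 12 arrays, after replicate means were removed. Among genes that are not members, the 5 highest were fl(2)d at 0.98, Gnf1 at 0.97, and Mau2, Myd88 and sgll at 0.96 to 0.97. Within the members, RpL40, which is itself part of that mean, had 0.97. The paralogs RpL7-like and RpLP0-like, which are not part of it, had 0.95 and 0.54. These values describe arrays that share their groups and normalization, and the deviations of the common mean they rest on run only from -0.09 to 0.06.

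Proteins that work with the ribosome were examined from a list of elongation and initiation factors, of which 20 of 27 were measured. Of the 20, limma called 1 higher and 1 lower in Pc/ph+PTIP against control, 1 higher and 0 lower against Pc/ph, 0 higher and 2 lower in Pc/ph against control, and 0 higher and 1 lower in PTIP against control. Over all probe sets 5.57%, 5.5%, 1.53% and 6.52% were called in either direction in these comparisons. The member with the calls against control in all 3 groups was eIF4B, which aids the helicase that opens the mRNA leader. It had 9.83, 10.59 and 10.52 in Pc/ph+PTIP cells, 10.26, 10.11 and 10.37 in Pc/ph cells, 9.92, 10.75 and 10.25 in PTIP cells and 11.58, 11.72 and 11.69 in control cells. All 9 arrays with dsRNA against Pc, ph or PTIP lay below the 3 control arrays. Against control, eIF4B fell by 1.35 in Pc/ph+PTIP cells, by 1.41 in Pc/ph cells and by 1.36 in PTIP cells. The limma adjusted p was 0.00247, 0.00304 and 0.00227, and without the block 0.0605, 0.0534 and 0.0538. Whether the control cells received any dsRNA is not given, so a part of dsRNA as such in these differences was not tested. As these 3 comparisons share the control arrays, their likeness is no separate result.

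The interaction of eIF4B was 1.42 ± 0.25 (SE; limma adjusted p = 0.0679), and it was called in 8 of the 20 other ways of fitting, at adjusted p from 0.00545 to 0.0438. eIF6, which keeps the large subunit from joining too early, was called higher by 0.45 in Pc/ph+PTIP against Pc/ph cells (adjusted p = 0.0111), a call lost without Pc/ph replicate 2 (0.0587), Pc/ph+PTIP replicate 2 (0.073) or Pc/ph+PTIP replicate 3 (0.051). Its call in Pc/ph against control, at -0.38 (adjusted p = 0.0491), and that of bic, a subunit of the nascent chain-associated complex, in Pc/ph+PTIP against control, at 0.45 (adjusted p = 0.0396), each held in 5 of the 20 other ways of fitting. Rack1, a protein of the small subunit outside the symbol rule, differed from control by 0.05 in Pc/ph+PTIP, -0.01 in Pc/ph and 0.03 in PTIP cells and was not called.

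Of 21 listed regulators of ribosomal protein genes and of translation, 16 were measured and 2 were called in a comparison, Trf2 and Fkbp39. Limma called 1 higher and 1 lower in PTIP against control and likewise in Pc/ph+PTIP against Pc/ph. In Pc/ph+PTIP against control it called 0 higher and 1 lower, and in Pc/ph against control 0. Over all probe sets 6.52%, 5.5%, 5.57% and 1.53% were called in either direction in these comparisons. Trf2, a TBP-related factor known in flies for transcription from ribosomal protein promoters, had 8.73, 9.23 and 9.14 in Pc/ph+PTIP cells, 9.27, 10.18 and 10.14 in Pc/ph cells, 8.59, 9.44 and 8.48 in PTIP cells and 9.60, 10.19 and 9.98 in control cells. Both groups with PTIP dsRNA lay below their counterparts without it. It fell by 1.08 ± 0.17 in PTIP against control (SE, n = 3; limma adjusted p = 0.00578), by 0.89 in Pc/ph+PTIP against control (adjusted p = 0.015) and by 0.84 in Pc/ph+PTIP against Pc/ph (adjusted p = 0.0194), with -0.06 in Pc/ph against control. The call in PTIP cells was kept with each array left out in turn, and without the block none of the 3 was called (adjusted p = 0.373, 0.731 and 0.903). The call of Pc/ph+PTIP against control was lost without control replicate 1 (0.0623), control replicate 3 (0.0675) or Pc/ph+PTIP replicate 1, 2 or 3 (0.052, 0.0794 and 0.0563). That against Pc/ph was lost without Pc/ph replicate 2 (0.0715), Pc/ph replicate 3 (0.1) or Pc/ph+PTIP replicate 1, 2 or 3 (0.0534, 0.113 and 0.0729).

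Fkbp39, a nuclear immunophilin, had 13.15, 12.99 and 13.03 in Pc/ph+PTIP cells, 12.63, 12.46 and 12.65 in Pc/ph cells, 13.25, 13.03 and 13.16 in PTIP cells and 12.68, 12.83 and 12.67 in control cells. Both groups with PTIP dsRNA lay above both without it. It rose by 0.48 in Pc/ph+PTIP against Pc/ph (limma adjusted p = 0.0106) and by 0.42 in PTIP against control (adjusted p = 0.0171), and had 0.33 in Pc/ph+PTIP against control (adjusted p = 0.0504), which was called in 8 of the 20 other ways of fitting. Without the block neither call held (adjusted p = 0.228 and 0.311). The first was lost without Pc/ph replicate 2 (0.0569), Pc/ph+PTIP replicate 2 (0.0536) or Pc/ph+PTIP replicate 3 (0.0531), and the second without control replicate 1 (0.0813), control replicate 3 (0.0818) or PTIP replicate 3 (0.0736). Beside these regulators, the 29 common subunits had medians of 0.07 in Pc/ph+PTIP against Pc/ph and 0.05 in PTIP against control, as given above.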

How the data were processed

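The 12 arrays hold 18952 probe sets, with log2 values deposited by the authors. Per the submitters' processing notes these were made with RMA and analysed with limma, and no versions were stated there. Leaving out 183 array controls, 18769 probe sets entered the tests, with no filter on low values. Names come from the platform annotation, and all 41 members matched the RefSeq gene table (Release 6) by gene number. A further 3 matching probe sets with several symbols were set aside.

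In limma 3.58.1 (R 4.3.3), 1 fit of the 4 group means with the replicate number as a block was made to all 12 arrays, which leaves 6 residual degrees of freedom. The block was specified together with the choice of the members; the labels give the numbers but not what arrays of 1 number share. Variances were moderated with no trend, and p-values were adjusted by Benjamini-Hochberg for all 18769 probe sets, separately for each comparison. Errors are SEs of the fit. Same-numbered arrays correlated at 0.489 to 0.880 over 18 pairs after group means were removed, which for numbers 2 and 3 (0.489 to 0.775) did not exceed the range for arrays that carry number 2 in 1 group and number 3 in another, 0.396 to 0.784. Tables and figures were made in Python 3.11.15 with pandas 2.3.3, numpy 2.4.6 and matplotlib 3.10.9, and the fit was tested on simulated data.

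Members, lists and tests were chosen with earlier results of these data known. Genes named are the called members, the paralogs and their measured partners, the stalk genes, called list members, and the 5 genes outside the members most like the common mean. RpS29, RpS20, RpL41, RpL27, RpL40, Rack1, Sr-CI, the further probe sets and the flanking genes fall outside that choice and were named after their values were seen. The same holds for markers named only for lying at or above background. RpL32 was named for its use as a PCR reference. Alternatives were no block, a replicate 1 term, replicates 2 and 3 only, 3 further normalizations, an intensity trend, a filter on dim probe sets, all probe sets, and each array left out. The planned search of promoter motifs was not run, because no promoter sequences were used here. The number of arrays limits the precision.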

Additional observations from a re-analysis of the deposited data

Results flagged for a closer look

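RpS7, a small subunit protein, has a second, dimmer probe set that the comparisons above do not use, and it gave calls where the brighter probe set of the gene did not. The dimmer probe set had 6.31, 7.04 and 6.97 in Pc/ph+PTIP cells, 5.92, 6.58 and 6.65 in Pc/ph cells, 6.61, 7.09 and 6.98 in PTIP cells and 5.87, 6.66 and 6.75 in control cells. It was higher by 0.393 in Pc/ph+PTIP against Pc/ph (limma adjusted p = 0.0339) and by 0.465 in PTIP against control (adjusted p = 0.0158), with all 3 pairs positive in each. Without the replicate block neither was called. The brighter probe set differed by 0.08 and 0.07 in these comparisons, so the 2 probe sets of RpS7 disagree, and which transcripts the dimmer probe set measures was not tested.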

How the results depend on the processing

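Dropping the replicate block left 0 called members in all 6 comparisons. In PTIP against control 3 members were called, 5 in replicates 2 and 3 only, and 0 to 4 with single arrays left out. In Pc/ph against control 0 were called, 2 in replicates 2 and 3 only, and 0 to 1 with arrays left out. In Pc/ph+PTIP against control 1 was called. The count was 2 with a replicate 1 term, in replicates 2 and 3 only or with the dim probe sets removed. It was also 2 after cyclic loess and after quantile normalization of all arrays, or of replicate 1 apart from replicates 2 and 3. With arrays left out 0 to 3 were called. In Pc/ph+PTIP against Pc/ph 3 were called, 5 in replicates 2 and 3 only, and 2 to 5 with arrays left out. Against PTIP and for the interaction the count was 0 in every alternative. The median difference of the 41 members with arrays left out ran from 0.04 to 0.10 (PTIP), -0.06 to 0.01 (Pc/ph) and 0.05 to 0.07 (Pc/ph+PTIP) against control, 0.06 to 0.10 against Pc/ph, -0.04 to 0.03 against PTIP, and -0.01 to 0.06 for the interaction. For Pc/ph+PTIP against control it was 0.062, and 0.0753 in replicates 2 and 3 only. After cyclic loess it was 0.029. Quantile normalization gave 0.0474 over all arrays and 0.0439 with replicate 1 normalized apart from replicates 2 and 3. The cause of these changes was not tested. No called member changed direction in any alternative. The 3 arrays per group limit what can be seen: differences of common subunits smaller than the intervals given above were not detectable, and for members at background no difference can be read. Trf2 in PTIP against control and eIF4B against control in the other 3 groups lost their calls under no single-array omission.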
